A study of Mus musculus with 4 samples.

Results

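The D, E and A cyclins of G1 and S phase, their kinases and the transcription factor Myc were followed in mouse blood stem and progenitor cells with and without knockdown of the microRNA miR-99. The 10 genes were taken by name from 45232 gene rows: Ccnd1, Ccnd2, Ccnd3, Ccne1, Ccne2, Ccna2, Cdk2, Cdk4, Cdk6 and Myc. All 10 were found and all passed the filter on low counts, which kept 15320 genes. Long-term haematopoietic stem cells that carried GFP and either a scrambled control (Scr) or the miR-99 knockdown (KD) had been transplanted into mice. After 3 months, GFP-positive LSK cells, which lack lineage markers and carry Kit and Sca-1, were sorted, and RNA was read in 2 libraries per group, from 2 mice in each. Both groups share the transplantation and the GFP label. The labels used here give neither the strain, sex and age of the mice nor the agent of the knockdown, and do not say whether donors were pooled.

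D cyclins are made in response to growth signals and bind Cdk4 and Cdk6 in G1, where these kinases begin to phosphorylate the Rb protein and free E2F transcription factors. E cyclins then activate Cdk2 at the entry into DNA synthesis, and cyclin A2 takes over Cdk2 in S phase. Myc promotes these steps by raising the transcription of cyclin and kinase genes and of genes for cell growth. In blood formation the long-term stem cells are mostly out of cycle, whereas progenitors that leave this state divide often. Most cyclins are also controlled by protein breakdown, which RNA levels do not show.

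miR-99 belongs to a family of microRNAs with a shared seed, the bases 2 to 8 that pair with target RNAs. Which members the knockdown reached is not given in the labels. The mature sequences are shown to give the seed, and with it the site that was looked for in the 10 genes. They are RefSeq's, on GRCm38.p6, plus strand, at chr16:77598940-77598961 for miR-99a, chr17:17830194-17830215 for miR-99b and chr9:41531437-41531458 for miR-100, with the seed in capitals.
mmu-miR-99a-5p: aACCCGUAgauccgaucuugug
mmu-miR-99b-5p: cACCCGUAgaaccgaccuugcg
mmu-miR-100-5p: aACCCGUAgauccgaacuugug

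All 3 had the seed ACCCGUA. Its complement, TACGGGT, was found in the longest annotated 3′ untranslated region of 0 of the 10 genes, and of 232 of 20677 genes (1.12%) with such a region of at least 50 bases. The regions of the 10 genes ran from 469 bases in Myc to 10220 bases in Cdk6. The absence of these 7 letters says nothing on other kinds of site.

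Promoters, from 250 bases before the start of transcription to 50 after it, were available for 5 of the 10 genes, Ccnd3, Ccne1, Cdk2, Cdk4 and Cdk6. They were searched on both strands for the E2F consensus as TTTCCCGC, TTTCGCGC, TTTGCCGC or TTTGGCGC, and for the E-box CACGTG, which Myc binds with its partner Max. Those of Ccne1, Cdk2 and Cdk4 are printed because Ccne1 had the largest group difference and encodes the partner of Cdk2, and because Cdk4 held the most E-boxes. They are RefSeq's on GRCm38.p6, at chr7:38107441-38107740 (minus strand), chr10:128705002-128705301 (minus strand) and chr10:127063285-127063584 (plus strand), 5′ to 3′ along the gene, with matches in capitals.
Ccne1: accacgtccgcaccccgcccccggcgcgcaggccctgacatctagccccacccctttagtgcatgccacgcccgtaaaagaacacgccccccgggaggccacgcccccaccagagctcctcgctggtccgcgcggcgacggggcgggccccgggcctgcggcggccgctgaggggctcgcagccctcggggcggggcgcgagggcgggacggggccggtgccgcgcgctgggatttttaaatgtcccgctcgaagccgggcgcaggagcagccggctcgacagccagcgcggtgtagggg
Cdk2: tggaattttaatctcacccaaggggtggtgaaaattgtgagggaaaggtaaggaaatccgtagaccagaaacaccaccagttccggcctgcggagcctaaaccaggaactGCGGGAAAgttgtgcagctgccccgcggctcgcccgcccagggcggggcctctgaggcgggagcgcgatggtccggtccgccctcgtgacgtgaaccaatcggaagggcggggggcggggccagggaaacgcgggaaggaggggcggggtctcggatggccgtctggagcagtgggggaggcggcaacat
Cdk4: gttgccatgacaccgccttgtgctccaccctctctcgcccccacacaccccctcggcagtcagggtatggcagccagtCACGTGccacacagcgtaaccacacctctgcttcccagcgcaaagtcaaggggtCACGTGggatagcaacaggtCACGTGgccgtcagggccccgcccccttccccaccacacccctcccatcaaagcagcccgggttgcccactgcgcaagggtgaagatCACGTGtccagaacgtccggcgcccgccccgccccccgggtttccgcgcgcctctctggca

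The Cdk4 promoter held 4 E-boxes, beginning 172, 118, 98 and 11 bases before the start site, and that of Cdk6 held 1, beginning 220 bases before it. The Cdk2 promoter held 1 E2F match, 140 bases before the start site. Neither motif occurred in this window of Ccne1 or in either window of Ccnd3, and no 2 matches overlapped. Of all 32851 promoters in the same table, 2.26% held an E2F match and 7.15% an E-box. A match is only a run of letters and was not tested for binding. The absence of these letters says nothing on other forms of site or on bases outside the window.

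The libraries held 27295197 to 32350590 gene counts. Levels are given in CPM (counts scaled to library size, adjusted by the TMM method). Of the genes of the sort gate, Kit had 1149 and 1280 CPM under Scr against 670 and 774 under KD. Ly6a, the Sca-1 gene, had 46.5 and 22.8 CPM under Scr against 12.4 and 22.3 under KD. Both gate genes were thus lower in both KD libraries, Ly6a by a narrow margin between Scr 2 and KD 2. Of 7 LSK and stem cell markers, 6 were lower in both KD libraries than in both Scr libraries, against 26% of all genes tested, among them Hlf with 178 and 173 CPM under Scr against 50.6 and 54.5 under KD. The 8 neutrophil markers summed to 27360 CPM in KD 1 and to 4909 to 7716 in the other libraries, and the 8 B cell markers to 227 in KD 1 and 34.5 to 72.5 in the others. In KD 1 all 8 genes of both lists were highest. Of 8 erythroid markers, 5 were higher in both KD libraries, against 24.5% of all genes. Their sum was 5076 and 4373 CPM under Scr against 7749 and 8221 under KD, but without Car1, its largest part, 2213 and 1420 against 3382 and 2265, so that KD 2 was level with Scr 1. The 6 macrophage markers summed to 107 to 265 CPM. The 5 mast cell and basophil markers summed to 40.0 to 91.5 CPM without Gata2, which stem cells also express, and the 6 T and NK cell markers to 0.565 to 5.42 CPM without Nkg7, which stood at 114 to 207. The part of other cells in the results was not tested, and in bulk RNA fewer cells of a type and less RNA per cell cannot be told apart.

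The only comparison of the study sets KD against Scr. The E cyclins and cyclin A2 were higher in both KD libraries than in both Scr libraries, as were Myc, Cdk2, Cdk4 and Ccnd3 by smaller margins or unevenly. Ccnd2 was lower in both, and Ccnd1 and Cdk6 overlapped between the groups. So 8 of the 10 genes did not overlap between the groups, where 50.5% of all genes tested did not. Of these, 7 lay higher, against 24.5% of all genes, and 1 lower, against 26%. At a Benjamini-Hochberg adjusted p of 0.05, the quasi-likelihood fit of edgeR called 0 of the 10, as it did 0 of 15320 genes (0%), with a lowest adjusted p of 0.191. At an unadjusted p under 0.05 edgeR counted 5 of the 10, against 15.6% of all genes: 4 higher (Ccne1, Ccne2, Ccna2 and Myc), against 5.97%, and 1 lower (Ccnd2), against 9.63%. DESeq2 called 3 of the 10, against 5.79% of all genes. These were Ccne1, Ccne2 and Ccna2, all higher (1.66% of all genes), and 0 were called lower (4.13%). The DESeq2 shares count genes to which it gave no adjusted p as not called, while all 10 genes had one. DESeq2 called 0 of the 10 without Scr 1, where it called 0.82% of all genes, and 0 without Scr 2, where it called 0.163%. On the log2 scale, KD minus Scr had a median of 0.26 among the 10 genes and 0.02 among all genes tested. The 10 genes were chosen with earlier results of these data known, so these shares describe them and are no test of the group.

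**Figure D1:**
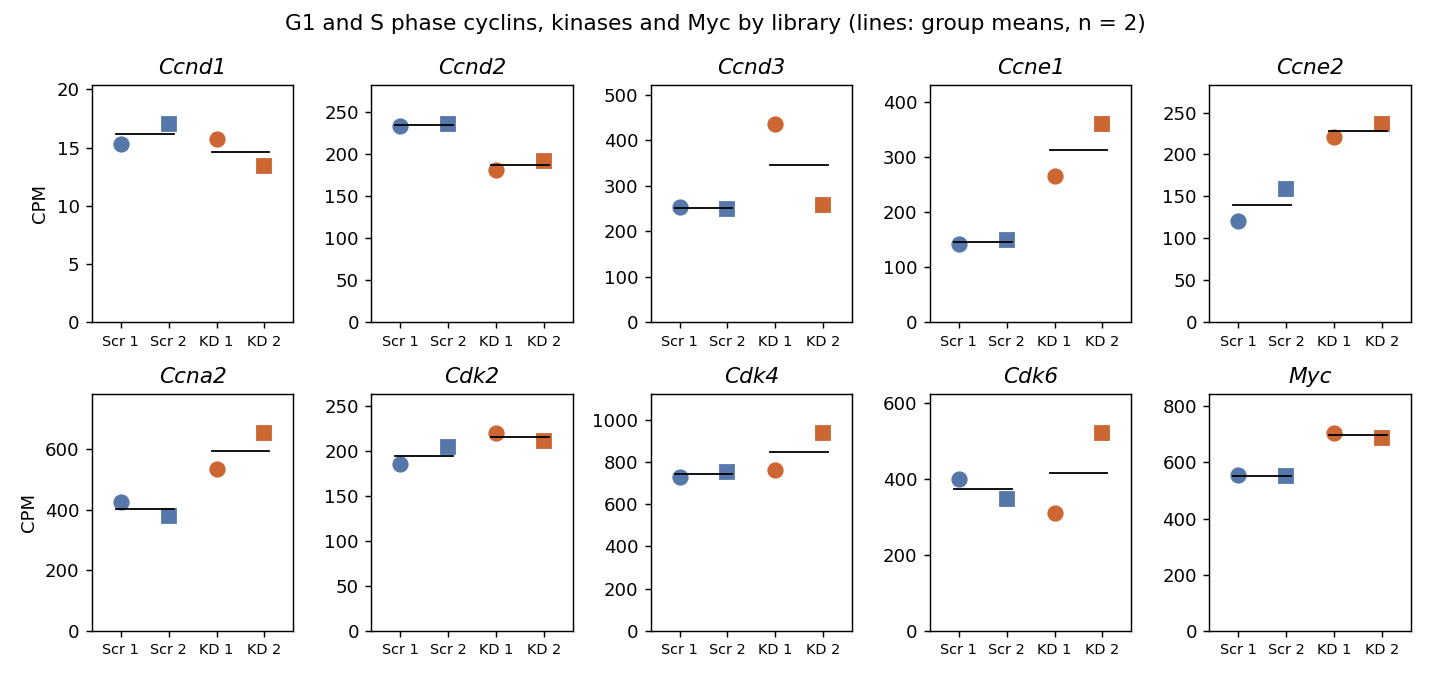
Level of each of the 10 genes in CPM (y axis, from 0) in the 4 libraries (x axis; blue Scr, orange KD), with a line at each group's mean of 2 libraries. Ccne1 reads 142 and 149 CPM under Scr, 265 in KD 1 and 359 in KD 2, while Ccnd3 and Cdk6 differ most between the 2 KD libraries.

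Among the D cyclins, Ccnd1 (ENSMUSG00000070348, chromosome 7) was scarce. Its libraries held 15.3 and 17.0 CPM under Scr, 15.7 under KD 1 and 13.4 under KD 2, so the groups overlapped. KD minus Scr was -0.15 ± 0.22 on the log2 scale (SE, n = 2 and 2; edgeR adjusted p = 0.779).

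Ccnd2 (ENSMUSG00000000184, chromosome 6), a D cyclin induced by many cytokines, had 234 and 236 CPM under Scr against 182 and 193 under KD. The libraries of each group lay close together, and both KD libraries lay below both Scr libraries. The mean was 235 ± 1.5 CPM (SD, n = 2) in Scr and 187 ± 7.7 in KD, a log2 difference of -0.33 ± 0.13 (SE) with an edgeR adjusted p of 0.314 and a DESeq2 adjusted p of 0.166. The difference was negative in all 13 alternative settings, from -0.41 to -0.29. Of the 10 genes, Ccnd2 and Ccnd1 were those with a negative difference.

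Ccnd3 (ENSMUSG00000034165, chromosome 17), the D cyclin known for its role in lymphocyte and red cell precursors, had 254 and 249 CPM under Scr, 435 in KD 1 and 258 in KD 2. KD 1 stood apart, and KD 2 lay just above the Scr libraries. On the log2 scale the group difference was 0.46 ± 0.26 (SE, n = 2 and 2; edgeR adjusted p = 0.437), but 0.04 without KD 1 and 0.79 without KD 2. Without KD 2 edgeR called it, at an adjusted p of 0.0422, where the adjusted p over all 13 alternatives ran up to 0.933. KD 1 is the library with the highest neutrophil and B cell marker levels, whose part in the value of Ccnd3 was not tested. An annotated processed pseudogene, Ccnd3-ps, makes the count of Ccnd3 less certain, and the share of Ccnd3 reads set aside as aligned to more than 1 place is not known.

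Levels of different genes were compared per kilobase of the longest protein-coding transcript. Ccnd3 made up 74.5% and 73.8% of the D cyclin RNA in the Scr libraries, 86.2% in KD 1 and 78.2% in KD 2. Ccnd2 made up 22.9% and 23.4% in Scr, 12.0% in KD 1 and 19.5% in KD 2, and Ccnd1 1.76% to 2.85%. The share of Ccnd3 was thus higher in both KD libraries and that of Ccnd2 lower. The size of these shares depends on the length taken. Per kilobase of all exons the log2 ratio of Ccnd2 over Ccnd3 was -0.22 and -0.18 in Scr, nearer to equal levels. It was -1.36 in KD 1 and -0.52 in KD 2. Per kilobase of the longest transcript, the ratio of Ccnd2 to Ccnd3 within a library was 0.308 and 0.316 under Scr. It was 0.140 in KD 1 and 0.250 in KD 2, a log2 difference of -0.74. This difference does not depend on library scaling or on transcript length, and it was -0.32 without KD 1 and -1.16 without KD 2. Its two-sided exact permutation p was 0.333, the smallest that 2 against 2 libraries allow.

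Ccne1 (ENSMUSG00000002068, chromosome 7), a cyclin E that activates Cdk2 for the start of DNA synthesis, had the largest difference of the 10 genes. Its level was 142 and 149 CPM under Scr, 265 in KD 1 and 359 in KD 2. Both KD libraries were far above both Scr libraries, and the Scr libraries differed little. The mean was 146 ± 4.9 CPM (SD, n = 2) in Scr and 312 ± 67 in KD, a ratio of 2.14 and a log2 difference of 1.10 ± 0.19 (SE). The edgeR adjusted p was 0.199, and Ccne1 ranked 131 of the 15320 genes by edgeR p. DESeq2 gave an adjusted p of 1.9e-05. Its log2 difference stayed between 0.86 and 1.30 in the 13 alternatives, over which the adjusted p ran from 1.9e-05 to 0.919.

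Ccne2 (ENSMUSG00000028212, chromosome 4), the other cyclin E, had 121 and 158 CPM under Scr against 221 and 236 under KD. Here the Scr libraries were farther apart than the KD libraries, and the groups did not overlap. KD exceeded Scr by 0.71 ± 0.17 on the log2 scale (SE, n = 2 and 2; edgeR adjusted p = 0.227, DESeq2 adjusted p = 0.0135). It was 0.50 without Scr 1 and 0.90 without Scr 2. Per kilobase, Ccne1 made up 63.8% and 58.6% of the cyclin E RNA in Scr and 64.3% and 69.6% in KD, so it was the larger part in every library. The log2 ratio of Ccne1 over Ccne2 was 0.36 higher in KD, with values of 0.82 and 0.50 in Scr and 0.85 and 1.19 in KD. Scr 1 and KD 1 were thus nearly alike in this ratio, and the difference ran from 0.19 to 0.53 without each library in turn.

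**Figure D2:**
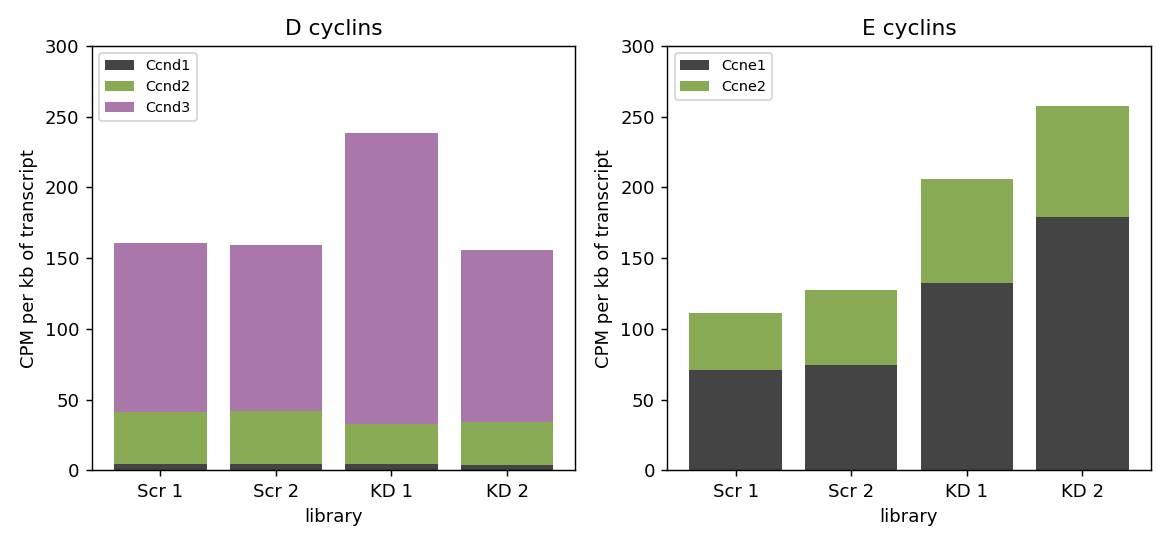
Level of the D cyclins (left) and E cyclins (right) in CPM per kilobase of the longest protein-coding transcript (y axis, from 0), stacked by gene, in each of the 4 libraries (x axis). The E cyclins sum to 111 and 127 in Scr and to 206 and 258 in KD, while the D cyclins sum to 161 and 160 in Scr, 239 in KD 1 and 156 in KD 2.

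Summed per kilobase, the E cyclins reached 111 and 127 CPM under Scr against 206 and 258 under KD. The D cyclins stood at 161 and 160 in Scr, 239 in KD 1 and 156 in KD 2, so only the E cyclin sums were separate by group. The log2 ratio of E over D cyclins was -0.53 and -0.33 in Scr, -0.21 in KD 1 and 0.72 in KD 2. The difference between the group means was 0.68 (exact permutation p = 0.333, two-sided, n = 2 per group), 1.15 without KD 1 and 0.22 without KD 2. Taken per kilobase of all exons, which gives Ccnd3 a much greater length, the ratio was positive in all 4 libraries, and the difference was 0.83.

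Ccna2 (ENSMUSG00000027715, chromosome 3), the cyclin of S phase and the entry into mitosis, had 427 and 380 CPM under Scr against 536 and 653 under KD. All KD values lay above all Scr values, with KD 2 the highest. On the log2 scale KD exceeded Scr by 0.56 ± 0.16 (SE, n = 2 and 2), at an adjusted p of 0.250 from edgeR and 0.0279 from DESeq2. Over the 13 alternatives the difference ran from 0.41 to 0.69. The mitotic cyclin Ccnb1 had 204 and 230 CPM under Scr against 230 and 244 under KD, which overlapped. The log2 ratio of Ccna2 over Ccnb1 was 0.82 and 0.47 in Scr and 0.97 and 1.17 in KD, a difference of 0.43 (two-sided exact permutation p = 0.333), and of 0.25 to 0.60 without each library in turn.

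Among the kinases, Cdk2 (ENSMUSG00000025358, chromosome 10), the partner of the E and A cyclins, had 185 and 204 CPM under Scr against 220 and 211 under KD. The groups were separate by a margin smaller than the gap between the Scr libraries. The difference on the log2 scale was 0.14 ± 0.13 (SE, n = 2 and 2), and edgeR and DESeq2 gave adjusted p of 0.620 and 0.660.

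Cdk4 (ENSMUSG00000006728, chromosome 10), a partner of the D cyclins, had 730 and 755 CPM under Scr, 761 in KD 1 and 937 in KD 2. KD 1 was next to the Scr libraries, and KD 2 was apart. KD minus Scr was 0.19 ± 0.16 on the log2 scale (SE, n = 2 and 2; edgeR adjusted p = 0.571), 0.33 without KD 1 and 0.04 without KD 2.

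Cdk6 (ENSMUSG00000040274, chromosome 5), the other D cyclin kinase, known in human stem cells for setting the time of exit from quiescence, had 399 and 346 CPM under Scr, 309 in KD 1 and 520 in KD 2. The KD libraries were thus the lowest and the highest of the 4. On the log2 scale the difference was 0.15 ± 0.27 (SE, n = 2 and 2; edgeR adjusted p = 0.810), and its sign turned with the library left out, at 0.48 without KD 1 and -0.27 without KD 2. Per kilobase, Cdk4 made up 75.8% to 77.5% of the RNA of the 3 kinases in the 4 libraries, Cdk2 14.9% to 18.7% and Cdk6 5.49% to 7.65%. The log2 ratio of Cdk6 over Cdk4 differed by -0.08 between the groups, less than the spread within either (exact permutation p = 1, two-sided).

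Myc (ENSMUSG00000022346, chromosome 15) had 556 and 551 CPM under Scr against 704 and 689 under KD. Both pairs were tight and did not overlap. The mean was 553 ± 3.0 CPM (SD, n = 2) in Scr and 696 ± 11 in KD, a log2 difference of 0.33 ± 0.12 (SE), with an edgeR adjusted p of 0.308 and a DESeq2 adjusted p of 0.112. It was 0.24 to 0.35 in the 13 alternatives, and the adjusted p was above 0.05 in all of them.

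**Figure D3:**
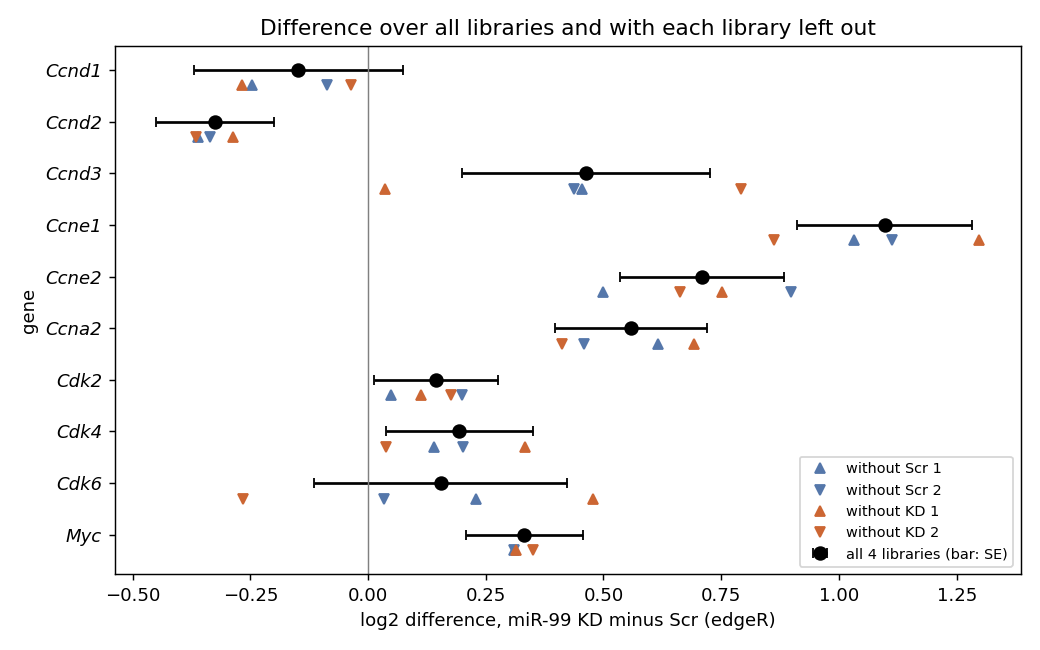
Difference of each gene on the log2 scale, KD minus Scr (x axis), by gene (y axis), with black points and SE bars for all 4 libraries and coloured triangles for each fit that leaves out 1 library. Ccne1 lies between 0.86 and 1.30, while Ccnd3 runs from 0.04 to 0.79 and Cdk6 from -0.27 to 0.48 with the KD library left out.

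In level, the order of the 10 genes by mean CPM per kilobase of transcript over the 4 libraries was Cdk4 (388), Myc (267), Ccna2 (168), Ccnd3 (141), Ccne1 (114), Cdk2 (85.2), Ccne2 (61.3), Cdk6 (34.1), Ccnd2 (33.3) and Ccnd1 (4.11). The ranges of Cdk4, Myc and Ccnd1 over the libraries did not overlap those of their neighbours. Ccna2 and Ccnd3, Ccnd3 and Ccne1, Ccne1 and Cdk2, Cdk2 and Ccne2, Ccne2 and Cdk6, and Cdk6 and Ccnd2 each overlapped in range. Within every library, however, Cdk2 lay above Ccne2 and Ccne2 above Cdk6. Ccne1 lay below Cdk2 in both Scr libraries (71.1 against 77.0 and 74.6 against 84.8). It lay above Cdk2 in both KD libraries (132 against 91.3 and 179 against 87.6). Per kilobase of all exons, Cdk4, Myc and Ccna2 were again the first 3, and Ccnd3 came after both E cyclins. So did Cdk2, with a mean of 33.0 against 85.9 for Ccne1 and 52.7 for Ccne2. The place of Cdk2 thus depends on the length taken.

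The gene with the profile nearest to each of the 10 over the 4 libraries was found by the root mean square difference of log2 CPM around its mean. Genes with a mean of at least 10 CPM over the 4 libraries were searched. Gm15459, named next, had a mean of 7.35 CPM in Scr and 15.7 in KD, so it passed only through its KD level. The nearest gene was Gm15459 for Ccne1 (0.03), Gon7 for Ccne2 (0.05), Mrpl36 for Ccna2 (0.01), Cdk5rap1 for Ccnd3 (0.05), Arih2 for Ccnd2 (0.02) and Cldnd1 for Myc (0.01). Within 0.1 of the profile lay 12 genes for Ccne1, 26 for Ccne2 and 25 for Ccnd3, but 358 for Ccna2, 1015 for Myc and 1265 for Cdk2. Cdk6 lay between these, with 104. These counts were lowest for Ccne1, Ccne2 and Ccnd3. A profile that varies more over the libraries has fewer genes near it. The counts thus restate the spread given above and are no separate result on these genes.

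Of the genes that act on these cyclins and kinases, 5 of 7 CDK inhibitors were tested. At an unadjusted p under 0.05 edgeR counted 0 higher, against 5.97% of all genes, and 2 lower, against 9.63%. DESeq2 called 1, Cdkn1c, lower, against 4.13%. Cdkn1c, the inhibitor p57 of stem cells, had 9.44 and 10.1 CPM under Scr against 2.24 and 2.67 under KD. Cdkn2c, the inhibitor p18 of Cdk4 and Cdk6, had 48.4 and 47.3 CPM under Scr against 35.1 and 21.7 under KD, and was called by neither tool. Cdkn2a had 0 counts in all 4 libraries, which allows up to 0.0897 to 0.114 CPM.

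Of 13 pocket proteins and E2F factors, edgeR counted 4 higher (5.97% of all genes) and 1 lower (9.63%) at an unadjusted p under 0.05. DESeq2 called E2f4 and Tfdp1 higher (1.66% of all genes). E2f4, mostly a repressor with the pocket proteins, had 391 and 413 CPM under Scr against 566 and 591 under KD. Tfdp1, the partner of E2F factors, had 252 and 253 CPM under Scr against 337 and 346 under KD. E2f1, an activator, overlapped, with 74.4 and 98.7 CPM under Scr against 77.7 and 65.7 under KD. The median over the 13 genes was 0.01 on the log2 scale. Of 16 E2F target genes of DNA replication, 2 were counted higher and 0 lower, against the same 5.97% and 9.63%, and DESeq2 called 0. Rrm2, a subunit of ribonucleotide reductase, had 536 and 588 CPM under Scr against 853 and 700 under KD. The 6 Mcm helicase genes had overlapping groups, with log2 differences from -0.12 to 0.11. Over all 16 targets the median was 0.12. Of the 16, 6 were higher in both KD libraries, against 24.5% of all genes, and 0 lower in both, against 26%.

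Of 12 genes for cyclin turnover, edgeR counted 1 higher at an unadjusted p under 0.05 (5.97% of all genes) and 0 lower (9.63%). It was Skp2, the ligase subunit that recognises p27, with 54.7 and 70.4 CPM under Scr against 89.9 and 102 under KD. The same shares apply to the next lists, and 1 gene in a list this short is no result about the list. Of 8 CDK activation genes edgeR counted 1 higher, Cdk7, the kinase that activates CDKs, and of 5 mitotic genes tested 2 higher, Cks2 and Cdk1. Of 10 Myc network genes tested, 1 was counted higher, Max, and 2 lower, Mnt and Mycn. Mnt, which competes with Myc for Max, had 13.8 and 12.6 CPM under Scr against 7.66 and 4.90 under KD. Mycn, a Myc paralogue, had 67.0 and 73.9 CPM under Scr against 40.1 and 53.1 under KD. Of 12 Myc target genes, edgeR counted 4 higher (5.97% of all genes) and 0 lower (9.63%), and DESeq2 called Odc1 and Srm higher (1.66%). The median over these targets was 0.30 on the log2 scale. After adjustment edgeR called 0 genes of these 8 lists. Leaving out Scr 1 or Scr 2 lowered most of the unadjusted edgeR counts of these lists, and the DESeq2 calls in them were lost. Leaving out KD 1 raised several counts of both tools, and leaving out KD 2 moved them in both directions. The edgeR share over all genes also fell without a Scr library and rose without a KD library.

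**Figure D4:**
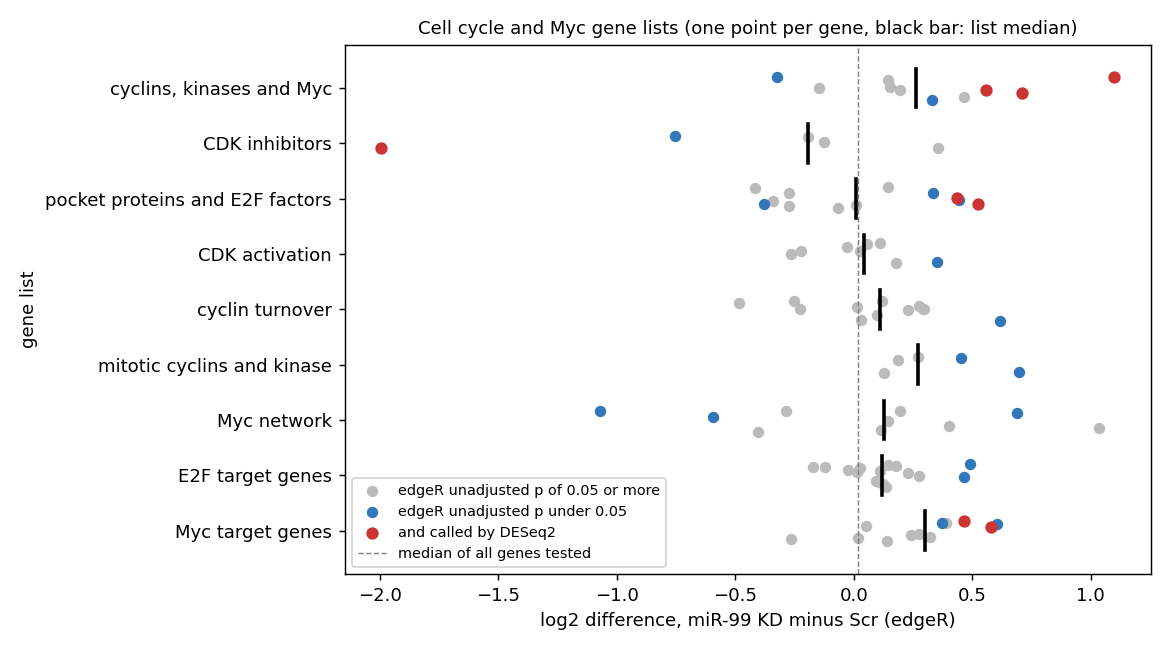
Log2 difference, KD minus Scr (x axis), of each tested gene by list (y axis), with list medians as black bars, the median of all genes as a dashed line, and colour for the edgeR unadjusted p and the DESeq2 call. The 10 cyclins, kinases and Myc have a median of 0.26, the CDK inhibitors -0.19 and the Myc targets 0.30.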

How the data were processed

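The deposited files hold raw counts of reads for each Ensembl gene, with every library in a file of its own. By the labels' protocols, RNA was taken up in Trizol LS and amplified with SMARTer. The submitters' processing notes name mm9 as the build and HTSeq, STAR, DESeq2 and Picard as tools; the sources used here give no versions or strand setting. Rows that name no gene held 36.9% to 42.5% of reads and were left out. Rows pasted under the genes name Scr 1 as Scr-2, KD 1 as Zip99a-2 and KD 2 as Zip99a-1, and give Scr 2 no name. A further pasted block, named Scr-1, has a total that matches none of the 4 libraries. The replicate numbers, and which original library Scr 2 is, are thus uncertain. Symbols and lengths came from GENCODE M21.

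Groups were compared with edgeR 4.0.16 (R 4.3.3; quasi-likelihood, filterByExpr, TMM, group as the only term), with Benjamini-Hochberg adjustment over all genes tested at 0.05. Alternatives were DESeq2 1.42.0, limma-voom (limma 3.58.1), 3 other scalings, 2 other filters, a replicate block, a threshold of 0.10, removal of mitochondrial, globin and ribosomal protein genes before scaling and testing, and leaving out each library. The SE of a log2 difference is the size of the edgeR difference divided by the square root of its F statistic. It draws on variance shared across genes, and not on the 4 libraries of that gene alone. The fits were first tried on simulated counts. The genes and lists were chosen with earlier results of these data known. Named genes are the 10, genes among the 4 lowest by edgeR p in a list, and the nearest profiles. E2f1, the Mcm genes, Cdkn2a and single marker genes were chosen after their values were seen.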

Additional observations from a re-analysis of the deposited data

How the results depend on the processing

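Over all 4 libraries edgeR called 0 genes, of which 0 were among the 10. The counts were 1064 and 2 (Ccne1 and Ccne2) without a filter and 887 and 3 with DESeq2. They were 0 with limma-voom, 3 other scalings, a filter at 10 CPM and a threshold of 0.10. Leaving out each library gave 0 to 1013 genes and 0 to 2 of the 10, namely Ccne1 and Ccna2 without KD 1 and Ccnd3 and Ccne1 without KD 2. Of the 10 genes, 5 had an unadjusted edgeR p under 0.05, against 15.6% of all genes. The count was 2 without Scr 1 (7.15% of all genes), 2 without Scr 2 (4.73%), 6 without KD 1 (26.3%) and 5 without KD 2 (18%), so the share over all genes moved too. DESeq2 called 0 of the 10 without Scr 1 and 0 without Scr 2. It called Ccne1, Ccne2 and Ccna2 without KD 1 (9.14% of all genes) but Ccnd3, Ccne1 and Ccne2 without KD 2 (5.11%), so that leaving out each library gave 0 to 3. A fit that leaves 1 library in a group assumes that it varies like the other group. Both of these last checks were added with the data in view, and the cause of the changes was not tested.

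Deviations from the group means correlated at 0.0952 between libraries of the same number, and with 2 pairs this was not taken as pairing. A fit with a replicate block called 0 genes in edgeR, left 3 of the 10 at an unadjusted p under 0.05 (13.4% of all genes), and in DESeq2 called 1 of the 10, Ccne1 (2.55% of all genes).

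The log2 difference of Cdk6 reversed in sign without KD 2, to -0.27, and lay between -0.27 and 0.48 without each library. The other 9 genes kept their sign in all 13 alternatives. With library totals alone in place of TMM the median over all genes was -0.07 and that over the 10 genes 0.18, and genes at an unadjusted p under 0.05 split into 503 higher and 1898 lower in place of 915 and 1475.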
